A study of Mus musculus with 4 samples.

Results

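The 9 genes of muscle formation described here were the satellite cell gene Pax7, the surface molecule Ncam1, the 4 members of the MyoD family (Myf5, Myod1, Myog and Myf6) and 3 members of the MEF2 family (Mef2a, Mef2c and Mef2d). They were taken by their gene symbols, with earlier results of these data known, and are 9 of the 55401 genes in the deposited count files. All 9 had enough reads to be among the 13533 genes tested. The samples were 4 libraries of semimembranosus muscle (a hamstring) from C57BL/6 mice aged 8 weeks. The IVS_diosmin group (2 libraries) had iliac vein stenosis, made by tying the left external iliac vein over a 30-gauge needle, and was given diosmin, a flavonoid drug for venous disease, into the stomach at 40 mg per kg per day. The IVS group (2 libraries) had the same stenosis and received normal saline by the same route. Both groups therefore carried the stenosis, and no muscle from an unoperated mouse was analysed here. The labels used here give neither the side of the muscle nor the length of treatment. The comparison asks how the myogenic programme of this muscle differs between diosmin-treated and saline-treated mice that share this lesion.

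Satellite cells are the stem cells of skeletal muscle, lie under the basement membrane of the fibre and are marked by the transcription factor Pax7. When they are activated they express Myf5 and Myod1, and when they differentiate they express Myog, which drives fusion into fibres; these factors bind DNA at E-boxes as dimers with E proteins, and Id proteins block them by taking up the E proteins. Myf6 is a MyoD family member that adult fibres keep expressing. MEF2 proteins are partners of the family that are held back in resting muscle by class II histone deacetylases.

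The promoters of Myog, Mef2a and Mef2c are shown because Myog is the textbook gene at which both families meet, and because Mef2a and Mef2c were the pair of members whose groups did not overlap. Groups that do not overlap were common, at 47.5% of all tested genes. The sequences are from RefSeq on GRCm38.p6 (the build also called mm10) and run from 250 bases before to 50 bases after the gene's start, 5′ to 3′ on the gene's strand. Capitals mark the E-box (CANNTG) and the MEF2 core, which is TA and TA around 4 bases that are each A or T; both read the same on either strand, and no marked site overlaps another.
Myog, chr1:134289754-134290053, plus strand: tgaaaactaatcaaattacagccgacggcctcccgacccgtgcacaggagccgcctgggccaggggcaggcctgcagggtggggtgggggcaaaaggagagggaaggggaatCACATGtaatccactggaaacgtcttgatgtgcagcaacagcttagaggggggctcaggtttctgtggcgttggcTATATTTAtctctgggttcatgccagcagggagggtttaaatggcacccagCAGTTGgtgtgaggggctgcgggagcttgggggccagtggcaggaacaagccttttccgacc
Mef2a, chr7:67372809-67373108, minus strand: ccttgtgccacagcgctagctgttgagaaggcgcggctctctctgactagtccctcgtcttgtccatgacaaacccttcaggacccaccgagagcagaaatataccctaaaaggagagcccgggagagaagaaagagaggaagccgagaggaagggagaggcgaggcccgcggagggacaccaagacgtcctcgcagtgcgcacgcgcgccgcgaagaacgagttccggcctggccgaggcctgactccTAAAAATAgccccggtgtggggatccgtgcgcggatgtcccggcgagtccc
Mef2c, chr13:83503784-83504083, plus strand: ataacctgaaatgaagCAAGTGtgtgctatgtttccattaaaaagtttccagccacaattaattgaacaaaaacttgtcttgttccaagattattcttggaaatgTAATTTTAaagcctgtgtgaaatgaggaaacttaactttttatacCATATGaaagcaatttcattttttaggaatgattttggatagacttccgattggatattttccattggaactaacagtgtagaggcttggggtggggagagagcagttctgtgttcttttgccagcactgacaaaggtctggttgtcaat
The Myog window held an E-box that begins 12 bases before the start, another that begins 138 bases before it and a MEF2 core that begins 63 bases before it. The Mef2a window held a MEF2 core that spans the start, and no E-box letters. The Mef2c window, the first of 3 start sites in the table, held 2 E-boxes and a MEF2 core; the second window held neither and the third held 1 E-box. Of 32851 promoter windows of this length, 72.3% held an E-box, 9.32% a MEF2 core and 7.01% both. The windows of Pax7, Myf5 and Mef2d held neither motif. Myod1, Myf6 and Ncam1 have no entry in the table.

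Gene counts per library were 13897740 and 14539304 in IVS_diosmin and 15324354 and 13056650 in IVS. The tissue was muscle by its markers, since the 7 fibre markers (Acta1, Ckm, Mb, Ttn, Myh4, Tnnt3 and Des) summed to 79700 and 84400 CPM (counts divided by TMM-scaled depth) in IVS_diosmin and to 72800 and 80900 CPM in IVS. Of these 7, Mb (edgeR adjusted p = 0.046) and Des rose with diosmin. Of 10 slow and fast fibre markers 6 rose (Myh7, Tnni1, Tnnc1, Tnnt1, Myl3 and Myh1) and 0 fell. The slow markers Myh7, Tnni1, Tnnc1, Tnnt1, Myl3 and Myl2 had log2 fold changes from 5.4 (Myl2, edgeR adjusted p = 0.0599) to 8.8 (Myh7). Myh7 was at 1260 and 457 CPM in IVS_diosmin and 1.72 and 2.19 CPM in IVS. The sums of the 10 do not show this, at 34500 and 30600 CPM in IVS_diosmin and 39000 and 37600 CPM in IVS. Most of each sum was the fast Myh4 and Tnni2, which had lower values with diosmin. Of 7 endothelial markers all had lower values with diosmin and 4 fell (edgeR test, adjusted p under 0.05), with sums of 188 and 178 CPM in IVS_diosmin and 384 and 365 CPM in IVS. Of the 6 satellite cell markers (Pax7, Myf5, Cdh15, Calcr, Chrdl2 and Vcam1) 3 had higher and 3 lower values and none passed, with sums of 23.5 and 21 CPM in IVS_diosmin and 19.7 and 24.8 CPM in IVS; by edgeR's test 1 of the 6 had an unadjusted p under 0.05. Reads aligned to more than 1 place made up 45.6% and 43.6% in IVS_diosmin and 37.7% and 38.8% in IVS, and Rn7sk, a short nuclear RNA, was at 11.9 and 5.97 CPM in IVS_diosmin and at 34.6 and 33.5 CPM in IVS. The part of these library differences in the results below was not tested. In bulk muscle, fewer cells of a type and less RNA per cell cannot be told apart.

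Within the muscle the 9 genes covered a wide range of levels, and the order was led by the fibre factor Myf6 in every library. Levels between genes are compared as RPKM (reads per kilobase of all annotated exons of the gene, scaled to CPM). Myf6 had 30.5 and 47.7 RPKM in IVS_diosmin and 37.2 and 28.9 RPKM in IVS, above 94.4% to 96.4% of the tested genes. Mef2d came second in every library, with 23.9 and 18.4 RPKM in IVS_diosmin and 19.8 and 18.4 RPKM in IVS, and its range did not overlap that of Myf6. Mef2c (5.45 to 8.43 RPKM), Myod1 (4.24 to 9.0 RPKM) and Mef2a (3.63 to 4.45 RPKM) followed and changed places between libraries, because Myod1 overlapped both of the others. Myog was sixth in every library, at 1.68 to 2.69 RPKM. The satellite cell end of the order was low: Myf5 lay at 0.518 to 1.05 RPKM, Ncam1 at 0.248 to 0.638 RPKM and Pax7 at 0.0948 to 0.553 RPKM, and these 3 overlapped one another. The exons of Mef2a and Mef2c add up to 14681 and 15715 bases over all their transcripts, so their RPKM understate the level of any shorter transcript in use.

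**Figure D1:**
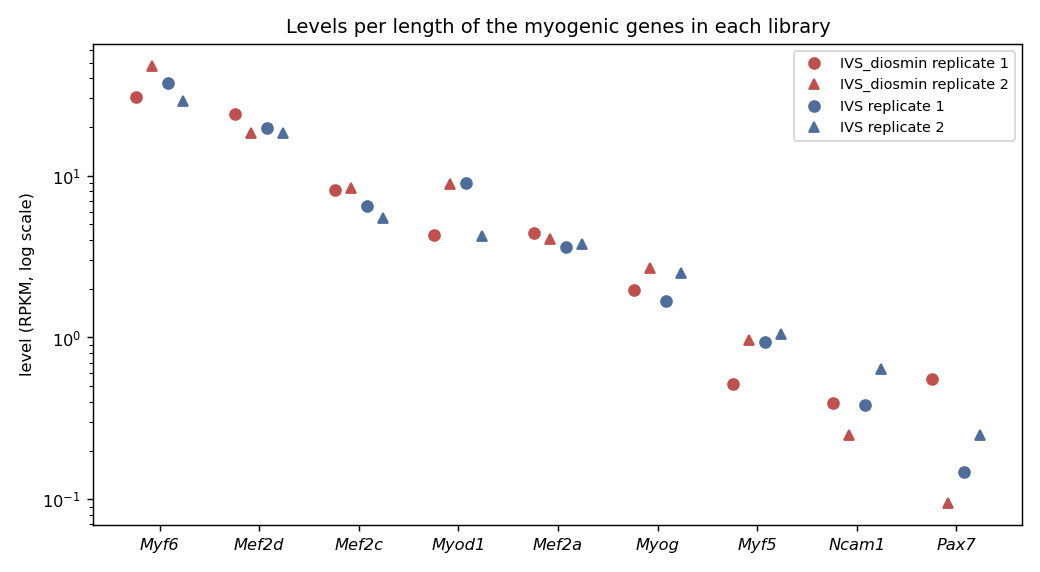
Levels of the 9 genes in RPKM on a log scale, ordered by their mean over the 4 libraries, with IVS_diosmin in red left of IVS in blue and replicate 1 as circles and replicate 2 as triangles. Myf6 and Mef2d lead in every library, and Pax7 spans 0.0948 to 0.553 RPKM, the widest range on this scale.

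In every library 1 gene made up most of the summed RPKM of each family, Myf6 among the MyoD genes and Mef2d among the MEF2 genes. Myf6 made up 81.8% and 79.2% of the summed RPKM of the MyoD family in IVS_diosmin and 76.2% and 78.8% in IVS. Myod1 gave 11.5% and 14.7% in IVS_diosmin and 18.4% and 11.5% in IVS. Myog and Myf5 gave the rest, with Myog at 5.25% and 4.47% in IVS_diosmin and 3.45% and 6.81% in IVS. Among the 3 MEF2 genes, Mef2d gave 65.6% and 59.5% in IVS_diosmin and 66.1% and 66.6% in IVS, and Mef2c gave 22.2% and 27.3% in IVS_diosmin and 21.8% and 19.7% in IVS. Both IVS_diosmin libraries had a higher Mef2c share than both IVS libraries, though 22.2% and 21.8% lie close together, and the shares were not tested. The Mef2d majority rests on dividing by exon length, 5985 bases for Mef2d and 15715 bases for Mef2c. In CPM, not scaled by length, the means of Mef2d and Mef2c were 126.6 and 130 CPM in IVS_diosmin and 114.1 and 94.0 CPM in IVS.

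No member passed the test between the groups. By the edgeR quasi-likelihood test with Benjamini-Hochberg adjustment over all tested genes, 0 of 9 had an adjusted p under 0.05, and the lowest was 0.26, for Mef2c. DESeq2 and limma-voom called 0 as well, and 1 of the 9 (Mef2c) had an unadjusted p under 0.05, where 16.8% of all tested genes did. Across all tested genes 2.96% were called, 1.17% higher and 1.78% lower with diosmin. The median log2 fold change of the 9 was 0.17, beside 0.01 for all tested genes, and -0.10 without IVS_diosmin replicate 2. With diosmin 6 members had higher and 3 lower values. The standard errors were wide, at a median of 0.43 over the members, so the 95% intervals below state what sizes of change the data allow. An exact permutation test of 1 gene in groups of 2 cannot go below p = 0.333.

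**Figure D2:**
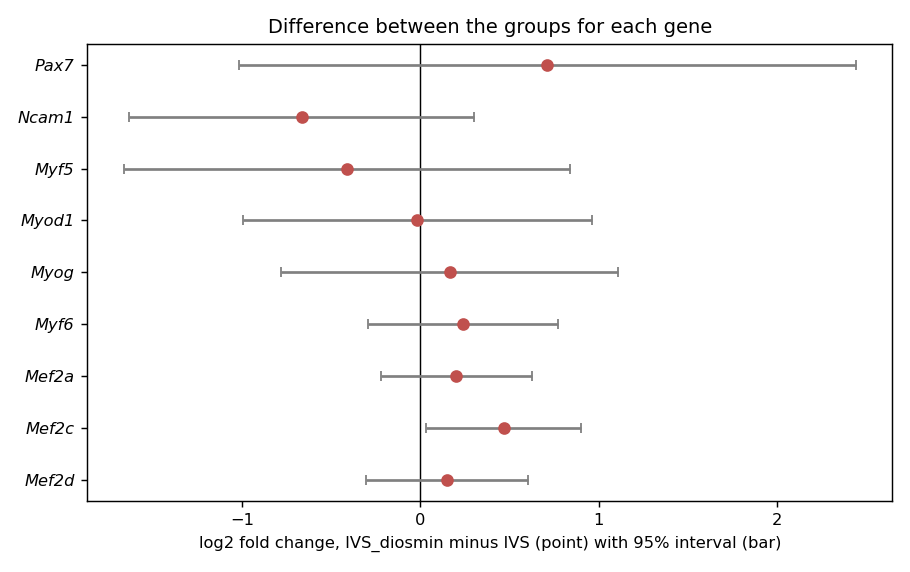
Log2 fold change, IVS_diosmin minus IVS, for each of the 9 genes as a point with its 95% interval from the edgeR test as a bar. The interval of Mef2c, 0.03 to 0.90, is the only one of the 9 that does not include 0, and it is not adjusted for the number of genes tested.

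Pax7, the paired-box factor that defines satellite cells (mm10 chromosome 4, 139737062 to 139833528, minus strand), gave few reads. It had 42 and 8 counts in IVS_diosmin and 15 and 18 counts in IVS, or 3.24 and 0.555 CPM in IVS_diosmin and 0.858 and 1.46 CPM in IVS. IVS_diosmin held both the highest and the lowest library, so the groups overlap. Replicate 1 of IVS_diosmin was 5.83 times replicate 2 (95% exact interval 2.70 to 14.4, counting error only), a gap larger than that of 97.9% of the 3059 tested genes at a level within 2-fold of Pax7. The log2 fold change was 0.71 ± 0.80 (SE, n = 2 libraries each, edgeR adjusted p = 0.730), and its sign rested on 1 library, since it was -1.04 without IVS_diosmin replicate 1. The slow myosin Myh7 was also higher in that library than in its replicate, at 1260 and 457 CPM in IVS_diosmin and 1.72 and 2.19 CPM in IVS, and the part of fibre makeup in the Pax7 value was not tested.

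Ncam1, a cell adhesion molecule of satellite cells, nerve endings and Schwann cells that denervated fibres also express (chromosome 9, 49502136 to 49798925, minus strand), had 44 and 31 counts in IVS_diosmin and 58 and 68 counts in IVS. In CPM these were 3.39 and 2.15 in IVS_diosmin and 3.32 and 5.53 in IVS. The groups overlap, because IVS_diosmin replicate 1 lay just above IVS replicate 1. The log2 fold change was -0.67 ± 0.45 (SE, edgeR adjusted p = 0.502), with an interval of -1.63 to 0.30, and it ran from -1.03 without IVS_diosmin replicate 1 to -0.27 without IVS replicate 2. Of 8 Schwann cell and nerve markers 4 had higher and 4 lower values and none passed, with sums of 78.3 and 133 CPM in IVS_diosmin and 45.1 and 284 CPM in IVS. The marker sum was higher in replicate 2 of both groups, while Ncam1 was higher in replicate 2 of IVS but lower in replicate 2 of IVS_diosmin. Exons of Gm11149, on the opposite strand, cover 4.81% of those of Ncam1, where reads of either gene cannot be told apart.

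Myf5, the first MyoD family gene of the muscle lineage, and Myf6 lie side by side on the minus strand of chromosome 10, at 107482908 to 107486134 and 107492853 to 107494737, with 6718 bases between them. Myf5 had 14 and 29 counts in IVS_diosmin and 34 and 27 counts in IVS, or 1.08 and 2.01 CPM in IVS_diosmin and 1.94 and 2.19 CPM in IVS. One IVS_diosmin library was low and the other lay within the IVS range, and the log2 fold change was -0.41 ± 0.58 (SE, edgeR adjusted p = 0.796). It ran from -0.95 without IVS_diosmin replicate 2 to -0.04 without IVS_diosmin replicate 1. Myf6 had 38.5 and 60.3 CPM in IVS_diosmin and 47.0 and 36.6 CPM in IVS. Its highest library was IVS_diosmin replicate 2 and the groups overlap, with a log2 fold change of 0.24 ± 0.25 (SE, edgeR adjusted p = 0.694) and an interval of -0.29 to 0.77, which is a level with diosmin between 0.817 and 1.71 times that in IVS.

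Myod1, the factor that can turn other cells into muscle (chromosome 7, 46376474 to 46379099, plus strand), split the libraries within each group. It had 104 and 237 counts in IVS_diosmin and 293 and 97 counts in IVS, or 8.02 and 16.5 CPM in IVS_diosmin and 16.7 and 7.88 CPM in IVS. The group means were 12.2 ± 6.0 CPM in IVS_diosmin and 12.3 ± 6.3 CPM in IVS (SD, n = 2 each), with a log2 fold change of -0.02 ± 0.43 (SE, edgeR adjusted p = 0.990) and an interval of -0.995 to 0.961. Replicate 1 was 0.487 times replicate 2 in IVS_diosmin (95% exact interval 0.383 to 0.616) and 2.13 times replicate 2 in IVS (1.68 to 2.70), both counting error only. Among the 4852 tested genes of like level, 97.2% differed less between the IVS_diosmin libraries and 97.0% less between the IVS libraries. Myf6 was higher in the same library of each group as Myod1, with replicate 1 at 0.640 times replicate 2 in IVS_diosmin and 1.29 times in IVS. The spread within each group was thus far larger than the difference between the group means.

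Myog, the factor of differentiation and fusion that rises in denervated fibres (chromosome 1, 134289989 to 134292548, plus strand), whose promoter is shown above, had 38 and 58 counts in IVS_diosmin and 44 and 46 counts in IVS. The levels were 2.93 and 4.03 CPM in IVS_diosmin and 2.52 and 3.74 CPM in IVS. The libraries of the groups interleave, and the log2 fold change was 0.17 ± 0.43 (SE, edgeR adjusted p = 0.900) with an interval of -0.78 to 1.11.

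**Figure D3:**
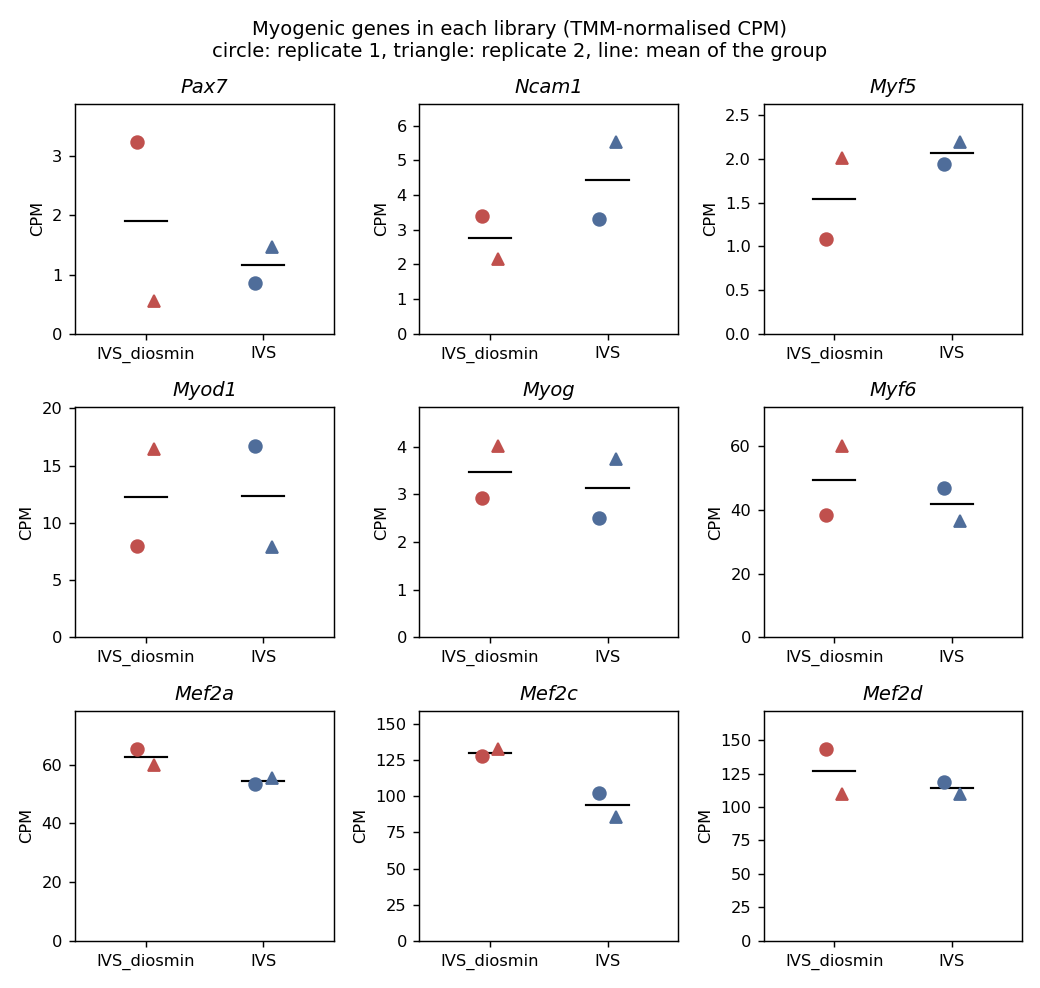
TMM-normalised CPM of the 9 genes in each library, on axes that start at 0, with IVS_diosmin left of IVS, circles for replicate 1, triangles for replicate 2 and a line at each group's mean. The IVS_diosmin libraries lie above both IVS libraries for Mef2a and Mef2c, as for 23.4% of all tested genes, and for the other 7 genes the groups overlap.

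The MEF2 genes had the smallest standard errors of the members, at 0.194 for Mef2a, 0.201 for Mef2c and 0.210 for Mef2d. Mef2c, which fibres, endothelium and immune cells express (chromosome 13, 83504034 to 83667080, plus strand), had 1655 and 1908 counts in IVS_diosmin and 1792 and 1053 counts in IVS. Scaled for depth these were 127.6 and 132.5 CPM in IVS_diosmin and 102.5 and 85.6 CPM in IVS, so both IVS_diosmin libraries were higher than both IVS libraries. Groups that do not overlap were common here, at 47.5% of all tested genes, 23.4% higher and 24.1% lower with diosmin. The log2 fold change of Mef2c was 0.47 ± 0.20 (SE, interval 0.03 to 0.90, unadjusted p = 0.0377), and the edgeR adjusted p = 0.260, which lay between 0.237 and 0.716 over 11 alternatives. By unadjusted p it ranked 1963 of the 13533 genes. In the IVS_diosmin libraries the endothelial markers given above were lower, and 6 of 10 slow and fast fibre markers rose. The part of cell and fibre makeup in the Mef2c value was not tested.

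Mef2a, a MEF2 gene expressed in many tissues (chromosome 7, 67231163 to 67372858, minus strand), had 65.3 and 59.8 CPM in IVS_diosmin and 53.3 and 55.5 CPM in IVS. The groups did not overlap, as in 47.5% of all tested genes. The log2 fold change was 0.20 ± 0.19 (SE, edgeR adjusted p = 0.675) with an interval of -0.22 to 0.62. Mef2d, whose muscle isoform takes part in differentiation (chromosome 3, 88142372 to 88172086, plus strand), had 143.2 and 109.9 CPM in IVS_diosmin and 118.4 and 109.9 CPM in IVS. Its IVS_diosmin replicate 2 and IVS replicate 2 were at the same rounded value and IVS_diosmin replicate 1 was the highest, with a log2 fold change of 0.15 ± 0.21 (SE, edgeR adjusted p = 0.796) and an interval of -0.31 to 0.60. Exons of the antisense gene 1700113A16Rik cover 8.87% of those of Mef2d, and exons of Lysmd4 on the other strand cover 2.06% of those of Mef2a, and reads there cannot be told apart without strand. The MEF2 family member Mef2b had 3 and 6 counts in IVS_diosmin and 3 and 4 counts in IVS, too few to test.

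The genes whose library pattern was most like that of a member were sought for Mef2c and Ncam1, the members of smallest p, by the Euclidean distance of centred log2 CPM over the 4 libraries. The nearest to Mef2c were Tapt1 (distance 0.033), Hectd4 (0.0405) and Btbd1 (0.0426), where the median over all genes was 0.777. Btbd1 was at 88.2 and 93.0 CPM in IVS_diosmin and at 69.1 and 58.4 CPM in IVS. The nearest to Ncam1 were 1110059G10Rik (0.0836), Klhl30 (0.0986) and Ctnnbl1 (0.0998), where the median was 1.09. With 4 libraries many genes fall close to any pattern.

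Around the members, Id1 and Id3, which block the MyoD family, fell with diosmin. Of 16 inhibitors of the family 12 were tested, 2 fell and 0 rose, and the median log2 fold change was -0.24. Across all tested genes 1.78% were called lower with diosmin. By edgeR 2 of the 12 had an unadjusted p under 0.05, which is near the 16.8% of all tested genes. Id1 had 18.3 and 11.7 CPM in IVS_diosmin and 36.4 and 78.0 CPM in IVS (log2 -1.93 ± 0.39 SE, edgeR adjusted p = 0.0433). Id3 had 9.87 and 11.4 CPM in IVS_diosmin and 19.7 and 28.8 CPM in IVS (log2 -1.19 ± 0.25 SE, edgeR adjusted p = 0.0282). Both are also targets of BMP signals in endothelium, and all 7 endothelial markers had lower values in the same libraries, with sums of 188 and 178 CPM in IVS_diosmin and 384 and 365 CPM in IVS; their part was not tested. Without IVS_diosmin replicate 1, IVS_diosmin replicate 2 or IVS replicate 2 the adjusted p was 0.156, 0.240 and 0.097 for Id1 and 0.243, 0.0612 and 0.278 for Id3. Both were called by DESeq2, and by limma-voom Id1 was called and Id3 was not (adjusted p = 0.0513).

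Genes that promote the family showed no call. Of 21 partners and upstream factors 20 were tested and 0 passed, and DESeq2 called 1 and limma-voom 0. By edgeR 3 of the 20 had an unadjusted p under 0.05. The share over all tested genes, to set beside this count and those of the lists below, was 16.8%. The smallest p belonged to Vgll2, a cofactor of TEAD factors in muscle, at 29.2 and 16.1 CPM in IVS_diosmin and 10.6 and 11.5 CPM in IVS (log2 1.04 ± 0.29 SE, edgeR adjusted p = 0.0765), which is the gene DESeq2 called. Without IVS_diosmin replicate 1 its log2 fold change was 0.55 (edgeR adjusted p = 0.481), and without IVS_diosmin replicate 2 it was 1.39 and passed (edgeR adjusted p = 0.0181). Tcf12, an E protein that pairs with MyoD family members, followed at 8.02 and 7.01 CPM in IVS_diosmin and 12.6 and 14.2 CPM in IVS (log2 -0.84, edgeR adjusted p = 0.128).

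Of 24 regulators and partners of MEF2 23 were tested and 0 passed, with 3 at an unadjusted p under 0.05 by edgeR and 0 called by DESeq2 or limma-voom; their median log2 fold change was 0.19. Nfatc2, a calcineurin-dependent factor, was at 33.8 and 27.5 CPM in IVS_diosmin and 20.0 and 15.0 CPM in IVS (log2 0.80 ± 0.23 SE, edgeR adjusted p = 0.0894). Hdac5, a class II deacetylase that binds MEF2, was at 71.2 and 69.7 CPM in IVS_diosmin and 48.2 and 49.6 CPM in IVS (log2 0.53 ± 0.19 SE, edgeR adjusted p = 0.180). In both genes the libraries of the groups do not overlap, as in 47.5% of all tested genes.

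Known targets of the families moved in both directions. Of 26 listed genes 25 were tested, 4 rose and 1 fell, with a median log2 fold change of 0.14. By edgeR 14 of the 25 had an unadjusted p under 0.05, where 16.8% of all tested genes did. In the same libraries 6 of 10 slow and fast fibre markers rose, as given above, and the part of fibre makeup in these values was not tested. Hspb7, a small heat shock protein of heart and muscle, had 177 and 84.9 CPM in IVS_diosmin and 26.5 and 29.5 CPM in IVS (log2 2.23 ± 0.32 SE, edgeR adjusted p = 0.00964), and it was called without each library in turn. Smyd1, a methyltransferase of the sarcomere (log2 1.09, edgeR adjusted p = 0.0214), Actc1, the cardiac actin that fetal muscle also expresses (log2 1.04, edgeR adjusted p = 0.0241), and Des, the intermediate filament desmin (log2 0.88, edgeR adjusted p = 0.0365), rose. Hrc, a calcium-binding protein of the sarcoplasmic reticulum, fell to 342 and 371 CPM in IVS_diosmin, against 733 and 946 CPM in IVS (log2 -1.23, edgeR adjusted p = 0.0112). Among the fits that left out 1 library, Smyd1 was called only without IVS replicate 1, Actc1 only without IVS_diosmin replicate 2 (edgeR adjusted p = 0.04997), Hrc only without IVS replicate 1 or IVS_diosmin replicate 2, and Des missed the threshold without any 1 library (0.105 to 0.249).

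Of 19 fusion and new fibre genes 16 were tested, 1 rose (Actc1) and 2 fell, with a median log2 fold change of -0.22; 5 of the 16 had an unadjusted p under 0.05 by edgeR. Jam2, a junction adhesion molecule that myoblasts and endothelium share, had 11.1 and 12.6 CPM in IVS_diosmin and 37.9 and 41.0 CPM in IVS (log2 -1.73 ± 0.22 SE, edgeR adjusted p = 0.00269; 0.0719 without IVS_diosmin replicate 1). Itgb1, the widely expressed integrin beta 1, fell (log2 -0.99, edgeR adjusted p = 0.0233), and without any library but IVS replicate 1 it missed the threshold (0.0815 to 0.189). The endothelial markers were lower in the same libraries as Jam2 and Itgb1, with the sums given above. Their part in these 2 values was not tested. The fusion genes Mymk and Mymx were close to the limit of detection, with 1 and 0 counts in IVS_diosmin and 0 and 6 counts in IVS for Mymk, and 0 and 0 counts in IVS_diosmin and 1 and 8 counts in IVS for Mymx. The embryonic myosin Myh3 had 8.25 and 0.555 CPM in IVS_diosmin and 1.03 and 0.406 CPM in IVS (log2 2.55 ± 1.24 SE, edgeR adjusted p = 0.387), so its one high library was that in which Pax7 was high.

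Of 18 satellite cell genes 17 were tested, Pax7 and Myf5 among them, and 1 fell and 0 rose, and the median log2 fold change was 0.04. By edgeR 5 of the 17 had an unadjusted p under 0.05. That gene was Cd34, a sialomucin of quiescent satellite cells that endothelium and fibro-adipogenic progenitors also carry, at 13.5 and 12.4 CPM in IVS_diosmin and 23.8 and 30.1 CPM in IVS (log2 -1.05 ± 0.23 SE, edgeR adjusted p = 0.0297), and which, among the fits that left out 1 library, was called only without IVS replicate 1. The endothelial markers were lower in the same libraries, with the sums given above, and their part was not tested. The 6 satellite cell markers given above did not pass, with 3 higher and 3 lower values. Cdh15, the M-cadherin of satellite cells, was at 10.8 and 12.8 CPM in IVS_diosmin and 12.6 and 15.8 CPM in IVS. Calcr, the calcitonin receptor of quiescent cells, was at 0.771 and 0.555 CPM in IVS_diosmin and 0.286 and 1.14 CPM in IVS. Chrdl2 had higher values with diosmin, at 5.55 and 3.96 CPM in IVS_diosmin and 2.46 and 2.60 CPM in IVS. Its log2 fold change was 0.91 ± 0.41 (SE, edgeR unadjusted p = 0.0464, adjusted p = 0.286). Other genes of the list had smaller unadjusted p by edgeR and did not pass either. Of these, Hey1 (log2 -1.24, unadjusted p = 0.0105) and Sdc3 (log2 -0.81, unadjusted p = 0.0119) had lower values with diosmin. Itga7 had higher values (log2 0.66, unadjusted p = 0.0122).

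Of 18 denervation response genes, which include Myog and Ncam1, 13 were tested and 0 passed, with 4 at an unadjusted p under 0.05 by edgeR and 0 called by DESeq2 or limma-voom; the median log2 fold change was 0.13. Sln, sarcolipin, an inhibitor of the sarcoplasmic calcium pump, was at 4.86 and 4.44 CPM in IVS_diosmin and 1.03 and 1.95 CPM in IVS (log2 1.66 ± 0.48 SE, edgeR adjusted p = 0.0866). Chrnd, the delta subunit of the acetylcholine receptor, was at 0.617 and 0.347 CPM in IVS_diosmin and 2.23 and 2.76 CPM in IVS (log2 -2.36 ± 0.69 SE, edgeR adjusted p = 0.0923). Chrng, the subunit of the fetal receptor that reappears in denervated muscle, had 1 and 1 counts in IVS_diosmin and 0 and 2 counts in IVS.

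**Figure D4:**
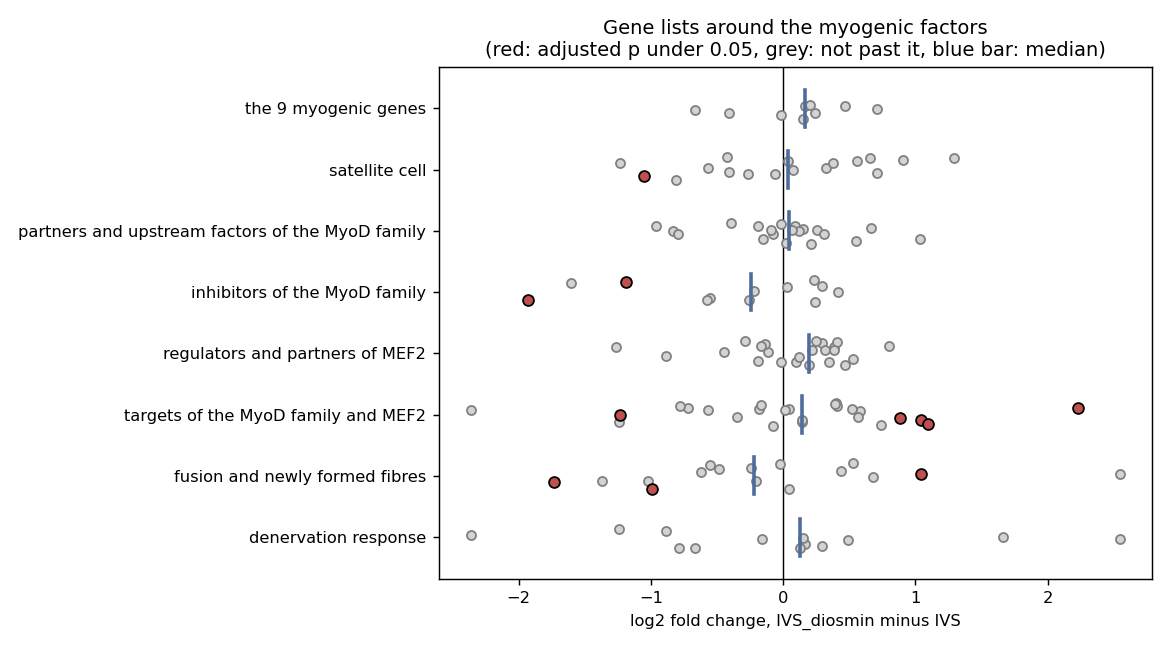
Log2 fold change, IVS_diosmin minus IVS, of each tested gene of the 9 members and of the 7 lists, with genes past an adjusted p of 0.05 in red, others in grey and each list's median as a blue bar. Actc1 and other shared genes appear in each list that holds them; the members and the partner, MEF2 regulator and denervation lists hold no red point.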

How the data were processed

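The authors deposited raw read counts of each gene in a separate file per library. The 5 HTSeq summary lines at its end belong to no gene and were left out (72.3% to 75.1% of reads). Per the submitters' processing notes, HISAT2 2.1.0, HTSeq and mm10 were used; for the annotation release and strand setting, nothing is stated in the sources used here. Symbols, positions and exon lengths are those of GENCODE M21 (mm10), in which 55141 of 55401 identifiers matched.

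Counts were tested with edgeR 4.0.16 in R 4.3.3 (filterByExpr, TMM, robust quasi-likelihood test, IVS_diosmin minus IVS, 2-sided), adjusted by Benjamini-Hochberg over 13533 genes at a threshold of 0.05. The biological coefficient of variation was 0.235. SE is the log2 fold change divided by the square root of F. CPM and RPKM use TMM library sizes. DESeq2 1.42.0, limma-voom 3.58.1, other scalings and filters, a replicate block and leaving out each library were alternatives. The procedure was tested on simulated data with the same spread for every gene and changes only in genes of high counts. That test does not cover changes in genes with few reads, such as Pax7, Myf5, Myog and Ncam1. The replicates differed beyond sampling noise (chi-square per degree of freedom 19.9 in IVS_diosmin and 29.0 in IVS). The labels do not say that they came from separate animals, so p-values reflect the spread between libraries, part or all of which may be technical. Exact intervals cover counting error only, since reads of amplified libraries are not independent molecules. Replicate numbers are shared between groups, but the deviations of same-numbered libraries correlated at 0.0115 across genes, so the numbers were not treated as pairs.

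The members and the lists were chosen with earlier results of these data known. Named were all members, the called genes of each list (at most 6) or, where none was called, the 2 of smallest p, and the 3 genes most like a called member or, with none called, the 2 members of smallest p. Cdh15, Calcr, Chrdl2, Myh3, Mymk, Mymx, Mef2b, Chrng, Myh7 and Rn7sk were named outside this rule, after their values were seen. So were Hey1, Sdc3 and Itga7, and the markers Mb, Tnni1, Tnnc1, Tnnt1, Myl3, Myl2, Myh1, Myh4, Tnni2, Lipe, Adipoq, Cfd, Plin1, Ms4a1 and Snap25.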

Additional observations from a re-analysis of the deposited data

How the results depend on the processing

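No member was called under any of the 11 alternatives (0 each), and of 96 member values under them 89 kept their direction. The 7 that turned did so without 1 library, where log2 fold changes ran from -1.04 to 1.48 for Pax7, -0.65 to 0.64 for Myod1, -0.10 to 0.46 for Myog, -0.13 to 0.53 for Myf6 and -0.054 to 0.31 for Mef2d, and the members' median ran from -0.10 to 0.20. Pax7 had no value with at least 10 counts in every library, and DESeq2 gave no adjusted p for Pax7 and Myf5. The 400 genes called in all became 613 with DESeq2, 919 with no filter beyond 1 count, 93 with the replicate block and 38 to 366 without 1 library. The 10 called genes of the lists became 23 with no filter, 3 with the replicate block and 1 to 10 without 1 library. The numbers name no known pair, and the block (correlation 0.0115) leaves 1 degree of freedom. A lone library was assumed to vary like the other group. Of 174 values of the 16 list genes named by rule, 33 lost a call and 6 gained one, and none turned. The cause was not tested. Pax7, Myf5, Myog and Ncam1 had at most 68 counts per library, which limits what could be seen.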

Other observations

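The libraries of a group carried differences that the group comparison does not show. IVS_diosmin replicate 1 held 42 counts of Pax7 and 107 of Myh3, against 8 counts of each in IVS_diosmin replicate 2; the IVS libraries held 15 and 18 counts of Pax7 and 18 and 5 counts of Myh3. Myf5 was lower in that library, with 14 and 29 counts in IVS_diosmin and 34 and 27 counts in IVS. Pax7 and Myh3 were picked after their values were seen, and their libraries' difference was not tested.

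Tissue beside the fibres varied between libraries of the same group. The summed fibro-adipogenic progenitor markers were at 140 and 132 CPM in IVS_diosmin and 97.3 and 183 CPM in IVS, the macrophage markers at 19.1 and 29.9 CPM in IVS_diosmin and 16.9 and 35.3 CPM in IVS, and the adipocyte markers at 44.5 and 41.9 CPM in IVS_diosmin and 30.4 and 61.3 CPM in IVS. Smooth muscle and pericyte markers were at 234 and 208 CPM in IVS_diosmin and 232 and 226 CPM in IVS. By these sums IVS replicate 2 was the highest library and IVS replicate 1 the lowest in each of the first 3 lists. Most of each adipocyte sum was Lipe, at 38.2 and 27.8 CPM in IVS_diosmin and 20.5 and 34.9 CPM in IVS. Adipoq (0.231 and 2.64 CPM in IVS_diosmin, 1.6 and 2.68 CPM in IVS) was lowest in IVS_diosmin replicate 1. So was Cfd (5.71 and 10.8 CPM in IVS_diosmin, 8.06 and 22.8 CPM in IVS), while Plin1 was lowest in IVS replicate 1 (0.114 CPM). Of the neural and lymphoid markers Ms4a1 and Snap25 were at 0 counts in all libraries, and the 6 summed to 3.47 and 1.53 CPM in IVS_diosmin and 1.66 and 1.22 CPM in IVS.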
